A study of Mus musculus with 14 samples.

Results

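The genes described here encode the nuclear pore complex and the soluble factors that move cargo through it. They were taken by symbol alone, with no measured value used: the nucleoporins (Nup genes, Ndc1, Pom121, Tpr, Aaas, Seh1l, Sec13 and Rae1), the importins and exportins (Kpn, Ipo, Tnpo and Xpo genes and Cse1l), the Ran cycle genes (Ran, Rangap1, Ranbp1 and Rcc1), Ranbp2, and the mRNA export receptor (Nxf1, Nxt1 and Nxt2). The rule found 59 of the 10106 genes in the deposited table, and all 59 had a mean of at least 1 RPKM (read density over a gene's length, scaled to library size) and were tested with 9793 genes in all.

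The series measured polyadenylated RNA in OT-I CD8+ T cells, whose single transgenic receptor recognizes SIINFEKL, a peptide of ovalbumin. Spleen OT-I cells were labelled with the dye CFSE and transferred into CD45.2+ C57BL/6 mice, the labels giving an age of 8 to 12 weeks. At 1 day after transfer the mice received 223 pmol of antigen by vein, the molar equivalent of 10 µg of ovalbumin, and on day 4 the transferred cells were sorted from the spleen on CD3e, CD8 and CD45.1. The groups were ERY1-OVA, ovalbumin made to bind erythrocytes (3 libraries), OVA, soluble ovalbumin (3 libraries), TER119-SIINFEKL, the peptide made to bind erythrocytes (3 libraries), SIINFEKL, the soluble peptide (2 libraries), and Naive, saline in place of antigen (3 libraries), which the design names as the resting background. All 5 groups share the same receptor, so nothing here shows how cells of other specificity behaved. The design counts mice per group, but the labels do not tie each library to its own mouse, so p-values measure the spread between libraries.

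The nuclear pore complex is a ring-shaped channel in the nuclear envelope, built from an outer ring (the Y complex), an inner ring, membrane anchors, a cytoplasmic face, a nuclear basket and a central channel lined with phenylalanine-glycine repeats. Importins bind cargo in the cytoplasm and release it where Ran is bound to GTP, and exportins bind cargo together with that form of Ran. Rcc1 on chromatin loads Ran with GTP and Rangap1 on the cytoplasmic side triggers its hydrolysis, which gives transport its direction. T cells that enter growth and division after antigen enlarge the nucleus and rebuild the pores after each mitosis.

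All 14 libraries carried the transcripts of the labelled cell type. Levels ran from 247 to 399 RPKM for Cd8a and from 301 to 431 RPKM for Cd3e across them, against 0.182 to 1.31 RPKM for Cd4. Cd74, which marks antigen-presenting cells, reached 34.4 RPKM in OVA replicate 1 and 19.2 RPKM in TER119-SIINFEKL replicate 1, above 4.12 to 15.1 RPKM in the other 12 libraries. Across genes, the log2 level relative to the mean of the library's own group correlated with exon length at a Spearman rho of -0.47 and -0.46 in those same 2 libraries and of -0.33 to 0.50 in the other 12. Deviations from a group mean sum to 0, so a low value in 1 library goes with high values in others of its group. Leaving out both libraries together was 1 of the alternatives. The proliferation gene Mki67 measured 51.1 to 91.2 RPKM after ERY1-OVA, 43.5 to 71.5 RPKM after OVA, 29.2 to 74.8 RPKM after TER119-SIINFEKL, 21.2 and 2.89 RPKM after SIINFEKL, and 1.48 to 2.35 RPKM in Naive cells, so the 2 SIINFEKL libraries were unlike in this gene.

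Between 26 and 33 of the 59 transport genes rose in the 3 groups whose cells carried high Mki67. After soluble peptide 8 were called, near the share of all genes. After OVA 33 of 59 rose and 4 fell relative to Naive, with 47.6% of all tested genes called, 24.4% higher and 23.1% lower. After ERY1-OVA 26 rose and 3 fell, where 39.9% of all genes were called, 20.9% higher and 19.0% lower. After TER119-SIINFEKL 30 rose and 3 fell, where 47.6% of all genes were called, 24.6% higher and 23.0% lower. Among the 59, the share that rose was 55.9% after OVA, 44.1% after ERY1-OVA and 50.8% after TER119-SIINFEKL, above the background, and the share that fell was 6.78%, 5.08% and 5.08% in the same order, below it. After SIINFEKL 1 rose and 7 fell, against 7.58% and 8.34% of all genes, and 13.6% of the members were called beside 15.9% of all genes.

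The changes were moderate. The median log2 fold change of the 59 from Naive was 0.28 after ERY1-OVA, 0.49 after OVA, 0.39 after TER119-SIINFEKL and -0.19 after SIINFEKL, beside medians of all tested genes between -0.04 and 0.00. Called rises of at least 2-fold numbered 5 after ERY1-OVA, 16 after OVA, 8 after TER119-SIINFEKL and 0 after SIINFEKL, where 6.84%, 7.75%, 7.39% and 2.77% of all genes did so. These 4 comparisons share the 3 Naive libraries, so values that agree between them are not independent. A set of 26 genes rose in all 3 of ERY1-OVA, OVA and TER119-SIINFEKL, and 2, Kpna4 and Nup153, fell in all 3. Those shares of the members, 44.1% and 3.39%, stand beside 17.1% and 14.2% of all tested genes. In bulk RNA, a change in the share of cells that express a gene and a change in RNA per cell cannot be told apart.

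**Figure D1:**
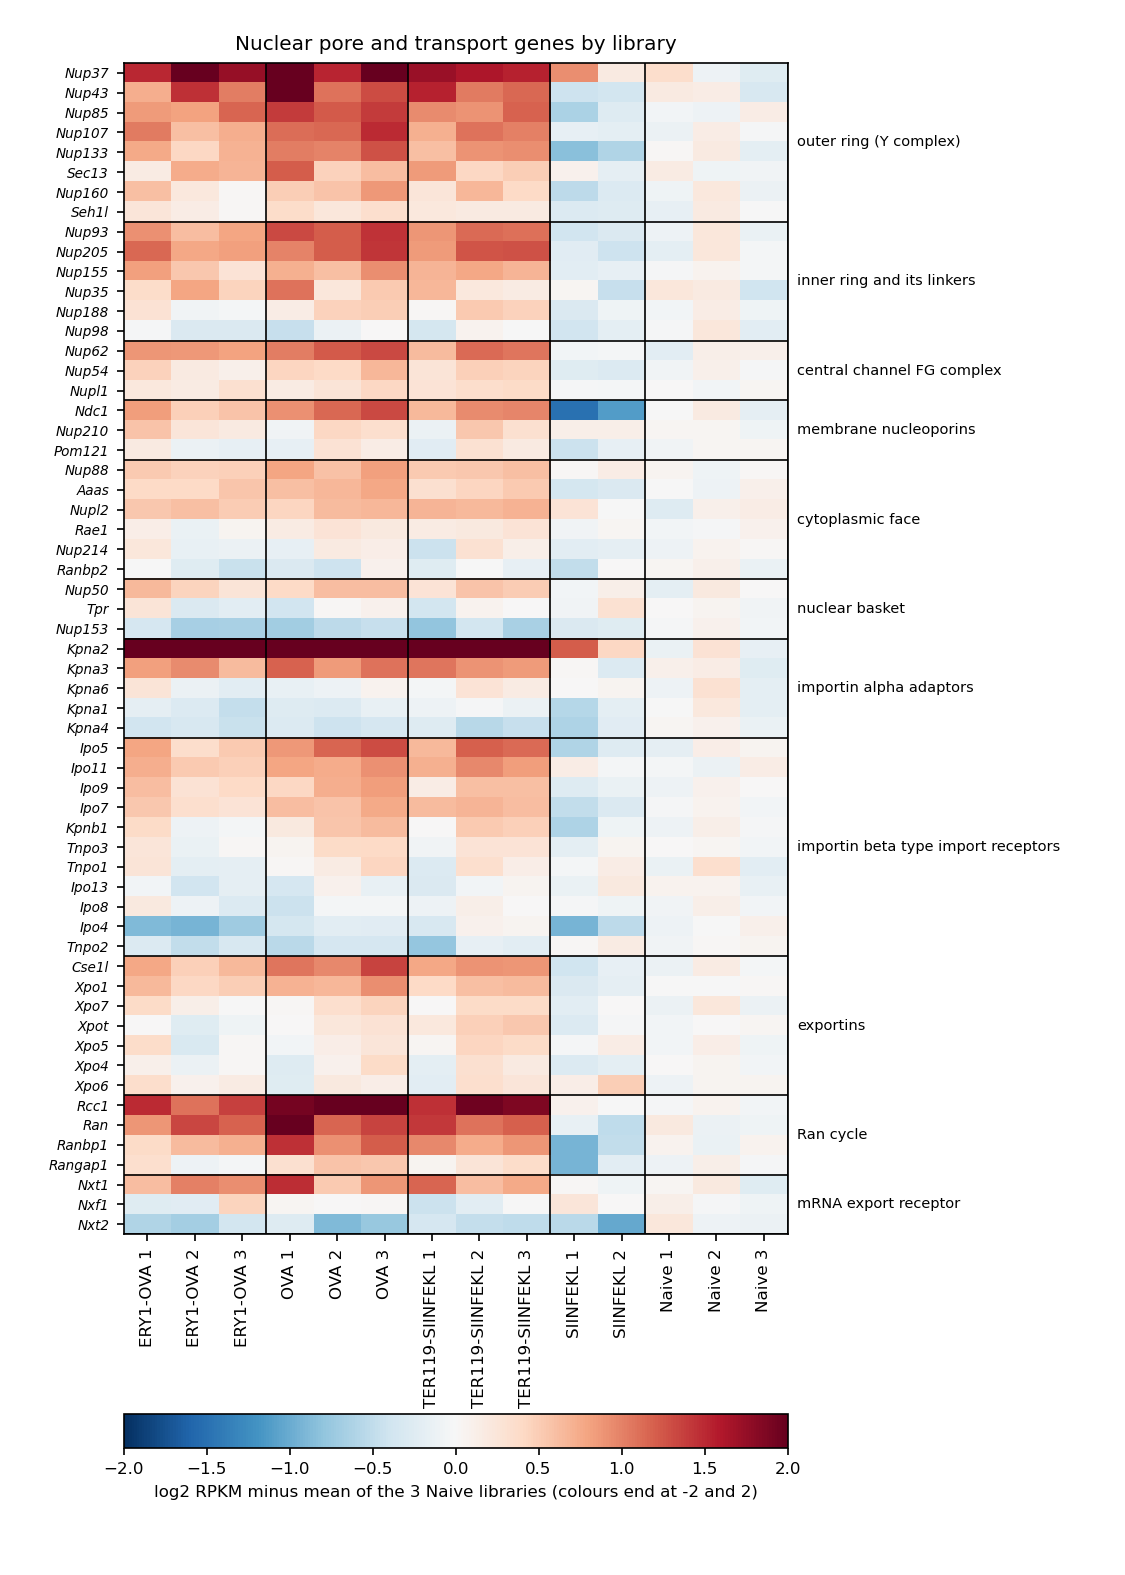
Log2 RPKM of each of the 59 genes (rows, grouped by role) in each of the 14 libraries (columns), minus the mean of the 3 Naive libraries; red is higher and blue is lower. The ERY1-OVA, OVA and TER119-SIINFEKL columns are red for most nucleoporins, Kpna2, Kpna3, Cse1l and Ran, and the 2 SIINFEKL columns are pale or blue.

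The members that rose together were described by the letters of their promoters, taken from RefSeq windows on GRCm38.p6 that run from 250 bases before to 50 bases after each start. Of the 59 genes, 49 matched a window, 59 windows in all because some genes have several, partly overlapping starts. On both strands 5 motifs were searched. The CCAAT box was read by those letters, and the E2F type by TTTNNCGC. The cell cycle homology region was read as TTTGAA. The E-box was searched by its letters CACGTG and the ETS type as CCGGAAG. Motifs were counted separately, overlaps included. The 250 bases before the start are shown for Kpna2, the member with the largest rise, for Nup37, the nucleoporin with the largest rise, and for Ran and Ranbp1, its binding partner, which rose together. Letters that match any of the 5 motifs on either strand are in capitals.
Kpna2, chr11:106999526-106999775, minus strand: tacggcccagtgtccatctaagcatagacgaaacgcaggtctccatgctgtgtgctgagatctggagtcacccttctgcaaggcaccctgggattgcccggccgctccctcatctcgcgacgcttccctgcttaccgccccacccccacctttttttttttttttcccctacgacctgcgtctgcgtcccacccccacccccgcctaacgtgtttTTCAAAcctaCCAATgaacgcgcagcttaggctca
Nup37, chr10:88146742-88146991, plus strand: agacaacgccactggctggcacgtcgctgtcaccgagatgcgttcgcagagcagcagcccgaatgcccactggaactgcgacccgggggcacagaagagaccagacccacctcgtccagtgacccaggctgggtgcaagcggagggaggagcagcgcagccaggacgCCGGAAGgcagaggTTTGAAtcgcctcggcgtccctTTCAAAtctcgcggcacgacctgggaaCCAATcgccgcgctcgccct
Ran, chr5:129019906-129020155, plus strand: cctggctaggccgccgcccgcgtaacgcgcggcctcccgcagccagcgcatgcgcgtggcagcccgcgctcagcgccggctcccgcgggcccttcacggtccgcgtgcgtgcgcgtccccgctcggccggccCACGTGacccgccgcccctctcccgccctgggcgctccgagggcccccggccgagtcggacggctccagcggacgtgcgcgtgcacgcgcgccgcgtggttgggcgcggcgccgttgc
Ranbp1, chr16:18248695-18248944, minus strand: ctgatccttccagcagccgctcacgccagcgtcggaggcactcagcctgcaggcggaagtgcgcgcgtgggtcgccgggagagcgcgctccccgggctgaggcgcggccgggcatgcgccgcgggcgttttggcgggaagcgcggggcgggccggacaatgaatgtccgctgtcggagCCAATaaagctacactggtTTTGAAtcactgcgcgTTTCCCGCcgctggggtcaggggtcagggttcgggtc
In Kpna2, a cell cycle homology match on the other strand stands a few bases before CCAAT. Nup37 holds 2 such elements and 1 CCAAT, and Ranbp1 holds a CCAAT, a cell cycle homology match and an E2F-type match in that order toward the start. Ran, by contrast, holds an E-box and no CCAAT in its window. GENCODE M21 places the start of Kpna2, Ran and Ranbp1 inside the printed stretch.

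Of the 26 genes that rose in all 3 groups, 22 had windows, 27 in number, and CCAAT was in 66.7% of them. It was in 28.1% of the 32 windows of the other members, 38.4% of the windows of tested genes and 37.4% of all 32851 windows. The E2F type was in 29.6% of the windows of the risers, 6.25% of the windows of the other members and 9.07% of those of tested genes. The E-box was in 11.1% of the windows of the risers and 18.8% of those of the other members. In the windows of tested genes it was at 10.54%, so the risers were near that level and the other members above it. The cell cycle homology and ETS types differed little between risers and others, at 25.9% and 18.5% against 25% and 18.8% of the windows. In the windows of tested genes they were at 12.1% and 20.1%. A match is a description of letters and not a bound site, and the windows were sorted by measured changes, so no test was made.

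Among the Ran cycle genes, Ran itself, its GTP-loading factor Rcc1 and its binding protein Ranbp1 rose in ERY1-OVA, OVA and TER119-SIINFEKL cells. Ran was the most abundant member per length in Naive cells, at 123 ± 14.6 RPKM (SD, n = 3). Ran measured 225, 308 and 277 RPKM in the ERY1-OVA libraries, 495, 276 and 312 RPKM after OVA, 326, 259.9 and 279 RPKM after TER119-SIINFEKL, 111 and 85.8 RPKM after SIINFEKL and 139.8, 113 and 116 RPKM in the Naive libraries. Each library of the 3 groups lay above every Naive library, and both SIINFEKL libraries lay below every Naive library. The log2 fold change of Ran from Naive was 1.13 ± 0.20 (SE, adjusted p = 0.00064, limma) after ERY1-OVA, 1.51 ± 0.20 (adjusted p = 5.0e-05) after OVA, 1.23 ± 0.20 (adjusted p = 0.00024) after TER119-SIINFEKL and -0.33 ± 0.22 (adjusted p = 0.34) after SIINFEKL.

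Rcc1 changed more than Ran relative to its own level. It measured 25.9, 19.6 and 23.7 RPKM in the ERY1-OVA libraries, 34.9, 36.7 and 41.5 RPKM after OVA, 25.4, 35.8 and 33.9 RPKM after TER119-SIINFEKL, 9.86 and 9.23 RPKM after SIINFEKL and 9.07, 9.76 and 8.95 RPKM in the Naive libraries. The SIINFEKL libraries were level with Naive, whereas the lowest library of the other 3 groups was above both. Rcc1 rose by 1.31 ± 0.14 (SE, log2, adjusted p = 1.0e-05) after ERY1-OVA, 2.02 ± 0.14 (adjusted p = 2.6e-07) after OVA and 1.76 ± 0.14 (adjusted p = 8.0e-07) after TER119-SIINFEKL. In the annotation, 3.51% of its exon bases overlap the host gene Snhg3 on the same strand.

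Ranbp1, which helps Rangap1 strip Ran from exported complexes, moved in both directions. Its level was 88.5, 106 and 111 RPKM in the ERY1-OVA libraries, 187, 128 and 156 RPKM after OVA, 132, 113 and 125 RPKM after TER119-SIINFEKL, 35.7 and 48.1 RPKM after SIINFEKL and 71.1, 61.9 and 70.9 RPKM in the Naive libraries. No Naive library overlapped any other group: the SIINFEKL libraries lay below Naive and the rest above it. Ranbp1 rose by 0.58 ± 0.15 (SE, log2, adjusted p = 0.0085), 1.19 ± 0.15 (adjusted p = 3.5e-05) and 0.86 ± 0.15 (adjusted p = 0.00044) after ERY1-OVA, OVA and TER119-SIINFEKL. After each library was corrected for exon length and GC content (the length and GC correction), the first and last of these were 0.31 and 0.54. After SIINFEKL it fell, with -0.71 ± 0.17 (adjusted p = 0.014), a call lost without SIINFEKL replicate 1 (-0.50). Of its exon bases, 16.9% overlap the model Gm49776 on the same strand.

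Rangap1, which turns Ran over, moved least of the 4 after ERY1-OVA, OVA and TER119-SIINFEKL. It measured 79.2, 58.8 and 61.2 RPKM in the ERY1-OVA libraries, 78.5, 93.4 and 91.7 RPKM after OVA, 65.6, 75.3 and 81.6 RPKM after TER119-SIINFEKL, 33.3 and 54.2 RPKM after SIINFEKL and 58.7, 68.5 and 62.3 RPKM in the Naive libraries. The OVA libraries lay above every Naive library and the SIINFEKL libraries below, while the other 2 groups overlapped Naive. The call was a rise after OVA (0.47 ± 0.17, SE, log2, adjusted p = 0.033), and it was lost with quantile normalization (0.28) or without Naive replicate 1 or 3 or OVA replicate 2 or 3. Log2 fold changes were 0.06 ± 0.17 after ERY1-OVA, 0.23 ± 0.17 after TER119-SIINFEKL and -0.57 ± 0.19 after SIINFEKL (adjusted p = 0.79, 0.28 and 0.055). As a ratio of RPKM within a library, Rcc1 over Rangap1 was 0.327 to 0.388 after ERY1-OVA, 0.393 to 0.453 after OVA, 0.387 to 0.476 after TER119-SIINFEKL, 0.297 and 0.170 after SIINFEKL, and 0.142 to 0.154 in Naive cells. Every library that received antigen lay above every Naive library in this ratio.

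**Figure D2:**
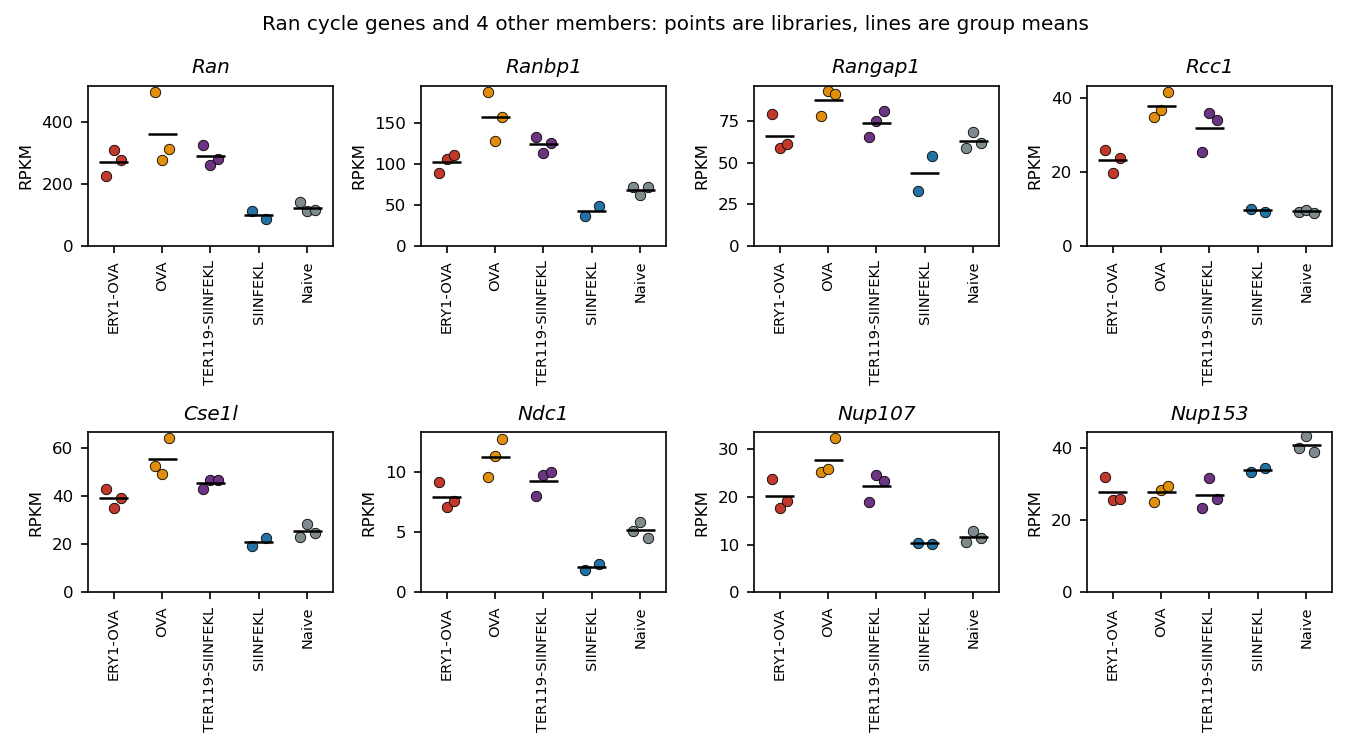
RPKM of the 4 Ran cycle genes and of Cse1l, Ndc1, Nup107 and Nup153 in each library (points) with the group mean (line); each panel starts at 0. Rcc1 sits near 9 RPKM in SIINFEKL and Naive cells and between 19.6 and 41.5 RPKM in the other groups, Ndc1 is lowest after SIINFEKL, and Nup153 is highest in Naive cells.

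The importin alpha adaptors, which link cargo bearing a classical nuclear localization signal to importin beta, changed their make-up. Kpna2 had the largest rise of any member in every comparison with Naive. It measured 154, 132 and 123 RPKM in the ERY1-OVA libraries, 180.4, 147 and 185 RPKM after OVA, 122, 150.1 and 127 RPKM after TER119-SIINFEKL, 43 and 24.6 RPKM after SIINFEKL and 17, 22.6 and 16.6 RPKM in the Naive libraries. All 11 libraries that received antigen lay above all 3 Naive libraries, with SIINFEKL replicate 2 closest to them. The log2 fold change was 2.87 ± 0.19 (SE, adjusted p = 4.1e-07, limma) after ERY1-OVA, 3.20 ± 0.19 (adjusted p = 8.8e-08) after OVA and 2.84 ± 0.19 (adjusted p = 3.3e-07) after TER119-SIINFEKL. After SIINFEKL it was 0.81 ± 0.21 (adjusted p = 0.022). That last call was lost without SIINFEKL replicate 1 (0.41), without Naive replicate 1 or 3 and with a fit of only those 2 groups. The annotation names a pseudogene, Kpna2-ps, whose reads could be shared with the gene.

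Kpna3 also rose in 3 groups while Kpna4 was lower in all 4. Kpna3 measured 21.8, 23.6 and 19.1 RPKM in the ERY1-OVA libraries, 28, 22.2 and 26.2 RPKM after OVA, 25.9, 23 and 22.3 RPKM after TER119-SIINFEKL, 12.5 and 10.1 RPKM after SIINFEKL and 13.3, 13.6 and 10.4 RPKM in the Naive libraries. The 3 groups lay apart from Naive, and the SIINFEKL values lay within or just under the Naive range. Its log2 fold changes were 0.80 ± 0.14 (SE, adjusted p = 0.00059) after ERY1-OVA, 1.04 ± 0.14 (adjusted p = 5.7e-05) after OVA, 0.94 ± 0.14 (adjusted p = 0.00011) after TER119-SIINFEKL and -0.13 ± 0.16 (adjusted p = 0.61) after SIINFEKL.

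Kpna4 measured 22.9, 24.1 and 22 RPKM in the ERY1-OVA libraries, 25, 22.5 and 23.7 RPKM after OVA, 25.1, 20.5 and 21.7 RPKM after TER119-SIINFEKL, 19.5 and 25.6 RPKM after SIINFEKL and 31, 31.9 and 27.4 RPKM in the Naive libraries. Every library that received antigen was below every Naive library. Kpna4 fell, with log2 changes of -0.39 (adjusted p = 0.020) after ERY1-OVA, -0.34 (adjusted p = 0.029) after OVA, -0.42 (adjusted p = 0.0097) after TER119-SIINFEKL and -0.42 (adjusted p = 0.044) after SIINFEKL, each with an SE of 0.12 to 0.13. The TER119-SIINFEKL call held in every alternative. Leaving out ERY1-OVA replicate 3, or either of Naive replicates 1 and 2, ended the ERY1-OVA call (log2 -0.36 to -0.34). Leaving out OVA replicate 2 or 3, or either of those Naive libraries, ended the OVA call (-0.34 to -0.30). The SIINFEKL call was lost in 14 alternatives, with the smallest value, -0.23, without SIINFEKL replicate 1.

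Kpna1 and Kpna6 were not called in any comparison. Kpna1 measured 29.8, 27.7 and 24.1 RPKM in the ERY1-OVA libraries, 28.2, 27.8 and 30.4 RPKM after OVA, 31.2, 33.2 and 31 RPKM after TER119-SIINFEKL, 22.7 and 29.4 RPKM after SIINFEKL and 33.3, 38.9 and 29.3 RPKM in the Naive libraries, and every group overlapped the Naive range. Kpna6 measured 17.5, 13.4 and 12.6 RPKM in the ERY1-OVA libraries, 13.2, 13.6 and 15.3 RPKM after OVA, 14.2, 17.6 and 16.2 RPKM after TER119-SIINFEKL, 14.6 and 15.1 RPKM after SIINFEKL and 13.6, 17.9 and 12.7 RPKM in the Naive libraries, and its groups overlapped throughout. As a share of the summed RPKM of the 5 adaptors, Kpna2 made up 59.9% to 62.6% after ERY1-OVA, 63.1% to 65.9% after OVA, 55.9% to 61.4% after TER119-SIINFEKL, 38.3% and 23.5% after SIINFEKL, and 15.7% to 18.1% in Naive cells. Kpna2 was the most abundant adaptor per length in each library of ERY1-OVA, OVA and TER119-SIINFEKL, against Kpna1 in each Naive library.

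**Figure D3:**
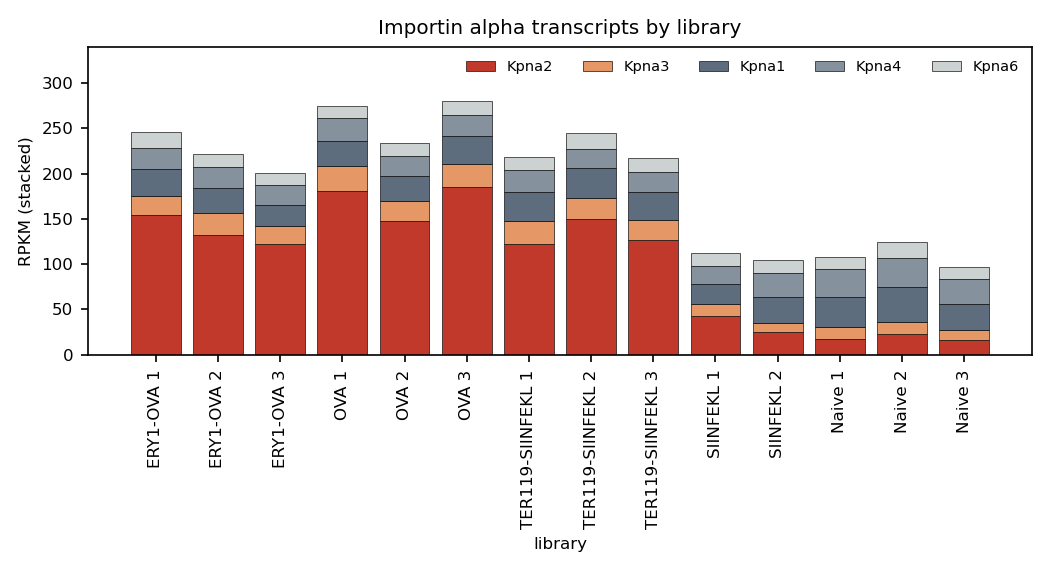
RPKM of the 5 importin alpha genes, stacked, in each of the 14 libraries. Kpna2 accounts for most of the taller bars, at 55.9% to 65.9% of the sum in ERY1-OVA, OVA and TER119-SIINFEKL libraries against 15.7% to 18.1% in Naive libraries.

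The importin beta type receptors split by member: 4 of 11, Ipo5, Ipo7, Ipo9 and Ipo11, rose in each of ERY1-OVA, OVA and TER119-SIINFEKL. Of all tested genes, 17.1% rose in all 3. Ipo11, a receptor for a ubiquitin-conjugating enzyme, measured 9.39, 8.13 and 7.91 RPKM in the ERY1-OVA libraries, 9.86, 9.47 and 10.7 RPKM after OVA, 9.29, 11 and 10.1 RPKM after TER119-SIINFEKL, 6.32 and 5.56 RPKM after SIINFEKL and 5.55, 5.24 and 6.32 RPKM in the Naive libraries. It rose by 0.57 ± 0.12 (SE, log2, adjusted p = 0.0023) after ERY1-OVA, 0.81 ± 0.12 (adjusted p = 0.00014) after OVA and 0.83 ± 0.12 (adjusted p = 0.00010) after TER119-SIINFEKL. The SIINFEKL and Naive values of Ipo11 overlapped, with 0.06 ± 0.14 between those groups (adjusted p = 0.80).

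Ipo7, which imports ribosomal proteins and other basic cargo, measured 45.3, 39.1 and 37.4 RPKM in the ERY1-OVA libraries, 47.8, 45.9 and 52.4 RPKM after OVA, 48.1, 49.6 and 47.8 RPKM after TER119-SIINFEKL, 22.2 and 25.5 RPKM after SIINFEKL and 30.6, 32.6 and 30.1 RPKM in the Naive libraries. Its rises of 0.38 ± 0.10 (SE, log2, adjusted p = 0.0084), 0.65 ± 0.10 (adjusted p = 0.00019) and 0.64 ± 0.10 (adjusted p = 0.00018) after ERY1-OVA, OVA and TER119-SIINFEKL held in every alternative. After SIINFEKL it fell by 0.39 (adjusted p = 0.032), a call lost in 7 alternatives, with the smallest value, -0.28, without SIINFEKL replicate 1. The others lost it without any 1 Naive library, with array weights, with a replicate block and with only those 2 groups fitted.

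Ipo5, another carrier of ribosomal proteins, rose by 0.56 ± 0.17 (SE, log2, adjusted p = 0.020) after ERY1-OVA, 1.11 ± 0.17 (adjusted p = 0.00018) after OVA and 0.99 ± 0.17 (adjusted p = 0.00039) after TER119-SIINFEKL. The ERY1-OVA call ended with quantile normalization and when replicate 1 of ERY1-OVA or of Naive was left out (log2 0.44 to 0.47). Ipo9 rose by 0.44, 0.66 and 0.45 in the same 3 groups, and its ERY1-OVA and TER119-SIINFEKL calls were each lost without any 1 of 4 libraries, Naive replicates 1 and 3 and 2 of the group's own (log2 0.34 to 0.46 and 0.37 to 0.45). Kpnb1, the importin beta that carries the alpha adaptors, was not called against Naive, at 0.08 ± 0.18 (adjusted p = 0.75) after ERY1-OVA, 0.46 ± 0.18 (adjusted p = 0.053) after OVA and 0.34 ± 0.18 (adjusted p = 0.14) after TER119-SIINFEKL.

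Ipo4, a carrier of histones, was the exception among the receptors in that ERY1-OVA and SIINFEKL cells were the low groups. It measured 8.04, 7.75 and 9.0 RPKM in the ERY1-OVA libraries, 11.6, 12.8 and 12.6 RPKM after OVA, 11.8, 15.6 and 15.3 RPKM after TER119-SIINFEKL, 7.8 and 10.3 RPKM after SIINFEKL and 13.8, 14.7 and 15.9 RPKM in the Naive libraries. All 3 ERY1-OVA libraries lay below every OVA, TER119-SIINFEKL and Naive library, and the SIINFEKL libraries lay below every Naive library. The log2 change from Naive was -0.84 ± 0.14 (SE, adjusted p = 0.00034) after ERY1-OVA, -0.27 ± 0.14 (adjusted p = 0.12) after OVA, -0.06 ± 0.14 (adjusted p = 0.72) after TER119-SIINFEKL and -0.72 ± 0.15 (adjusted p = 0.0075) after SIINFEKL, the last lost without SIINFEKL replicate 1 (-0.52). Of its exon bases, 55.3% overlap the model Gm49378 on the same strand, so the 2 cannot be separated where reads were counted by position.

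Tnpo2, a transportin for RNA-binding proteins, fell after OVA (-0.40 ± 0.14, SE, log2, adjusted p = 0.034) and after TER119-SIINFEKL (-0.38 ± 0.14, adjusted p = 0.044). The OVA call was lost without any 1 Naive library or OVA replicate 1 or 3 (-0.44 to -0.34), and the TER119-SIINFEKL call was lost in 10 alternatives. Without TER119-SIINFEKL replicate 1, where Tnpo2 measured 11 RPKM beside 16.6 and 16.2 RPKM in the other two, it was -0.19. Ipo8, Ipo13, Tnpo1 and Tnpo3 were called in no comparison.

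The exportins were led by Cse1l, which returns importin alpha to the cytoplasm. Cse1l measured 42.9, 35.1 and 39.3 RPKM in the ERY1-OVA libraries, 52.6, 49.1 and 64.1 RPKM after OVA, 42.8, 46.6 and 46.5 RPKM after TER119-SIINFEKL, 19.1 and 22.4 RPKM after SIINFEKL and 23.1, 28.1 and 24.5 RPKM in the Naive libraries. Every ERY1-OVA, OVA and TER119-SIINFEKL library was above every Naive library, and both SIINFEKL libraries were below all of them. Its log2 change from Naive was 0.63 ± 0.12 (SE, adjusted p = 0.0013) after ERY1-OVA, 1.13 ± 0.12 (adjusted p = 1.0e-05) after OVA, 0.85 ± 0.12 (adjusted p = 0.00010) after TER119-SIINFEKL and -0.28 ± 0.14 (adjusted p = 0.18) after SIINFEKL. The ERY1-OVA value was 0.42 with the length and GC correction and still passed.

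Xpo1, the main exporter of proteins with leucine-rich export signals, rose by 0.52 ± 0.10 (SE, log2, adjusted p = 0.0015) after ERY1-OVA, 0.77 ± 0.10 (adjusted p = 6.1e-05) after OVA and 0.55 ± 0.10 (adjusted p = 0.00079) after TER119-SIINFEKL, and the first of these was 0.34, still past the threshold, with the length and GC correction. Xpot, which exports transfer RNA, rose after TER119-SIINFEKL (0.41 ± 0.12, adjusted p = 0.015), a call lost without TER119-SIINFEKL replicate 2 or 3 (0.35 to 0.37). Its change was -0.11 ± 0.12 after ERY1-OVA and 0.18 ± 0.12 after OVA. The other 4 exportins, Xpo4, Xpo5 (which exports microRNA precursors), Xpo6 (an exporter of actin) and Xpo7, were called in no comparison.

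Of the mRNA export receptor, the small partner subunit moved and the large one did not pass. Nxt1 measured 25.8, 33.8 and 31.9 RPKM in the ERY1-OVA libraries, 46.7, 24.1 and 30.9 RPKM after OVA, 37.8, 25.8 and 28.4 RPKM after TER119-SIINFEKL, 17.1 and 15.7 RPKM after SIINFEKL and 17.2, 19.2 and 14.2 RPKM in the Naive libraries. The 3 groups lay above every Naive library, and the SIINFEKL values overlapped the Naive range. Nxt1 rose by 0.85 ± 0.21 (SE, log2, adjusted p = 0.0066) after ERY1-OVA, 0.96 ± 0.21 (adjusted p = 0.0025) after OVA and 0.85 ± 0.21 (adjusted p = 0.0052) after TER119-SIINFEKL. Nxf1 lay between 42.3 and 78.2 RPKM in all libraries, with log2 changes of -0.01, 0.02, -0.22 and 0.12 after ERY1-OVA, OVA, TER119-SIINFEKL and SIINFEKL.

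Nxt2, the other small subunit, was the least abundant member, at 1.37, 1.29 and 1.62 RPKM in the ERY1-OVA libraries, 1.75, 1.13 and 1.23 RPKM after OVA, 1.65, 1.5 and 1.46 RPKM after TER119-SIINFEKL, 1.43 and 1.03 RPKM after SIINFEKL and 2.44, 1.93 and 1.91 RPKM in the Naive libraries. All antigen libraries were below every Naive library. It fell after OVA (-0.63 ± 0.22, SE, log2, adjusted p = 0.028) and after SIINFEKL (-0.78 ± 0.24, adjusted p = 0.044). The OVA call was lost without Naive replicate 1 or OVA replicate 2 or 3 (-0.57 to -0.50) and the SIINFEKL call in 13 alternatives (-1.02 to -0.54). With a pseudocount of 1 RPKM the values were -0.39 and -0.47, both still past the threshold.

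Nucleoporins, which build the pore, were counted apart from the soluble factors. Of the 29 nucleoporins, 14 rose and 1 fell after ERY1-OVA, 20 rose and 1 fell after OVA, 17 rose and 1 fell after TER119-SIINFEKL, and 0 rose and 2 fell after SIINFEKL. Of the 30 receptors, Ran cycle and mRNA export genes the counts were 12 and 2, 13 and 3, 13 and 2, and 1 and 5. All tested genes rose at 20.9%, 24.4%, 24.6% and 7.58% in those groups, and whether nucleoporins and soluble factors differed was not tested. The Y complex, which forms the outer rings and seeds new pores, rose in most of its members: 5 of its 8 members rose after ERY1-OVA, 8 of 8 after OVA and 6 of 8 after TER119-SIINFEKL. Its median log2 change from Naive was 0.70, 1.18 and 0.87 in those groups and -0.33 after SIINFEKL.

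Nup37 had the largest change of the Y complex, at 15.1, 22.6 and 17.8 RPKM in the ERY1-OVA libraries, 30.0, 15.3 and 21.5 RPKM after OVA, 17.6, 16.3 and 15.5 RPKM after TER119-SIINFEKL, 10.1 and 6.03 RPKM after SIINFEKL and 6.75, 4.93 and 4.5 RPKM in the Naive libraries. The 3 groups lay above every Naive library, while the SIINFEKL libraries overlapped Naive. Nup37 rose by 1.78 ± 0.25 (SE, log2, adjusted p = 0.00010) after ERY1-OVA, 2.01 ± 0.25 (adjusted p = 3.0e-05) after OVA and 1.63 ± 0.25 (adjusted p = 0.00016) after TER119-SIINFEKL.

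Nup85 had the smallest adjusted p of the Y complex, at 25.7, 24.7 and 31.6 RPKM in the ERY1-OVA libraries, 37.2, 33.1 and 37.2 RPKM after OVA, 27.4, 26.4 and 32.1 RPKM after TER119-SIINFEKL, 9.1 and 11.8 RPKM after SIINFEKL and 13.7, 13.2 and 15.7 RPKM in the Naive libraries. It rose by 0.94 ± 0.13 (SE, log2, adjusted p = 0.00012), 1.34 ± 0.13 (adjusted p = 4.5e-06) and 1.01 ± 0.13 (adjusted p = 4.7e-05) after ERY1-OVA, OVA and TER119-SIINFEKL, and was -0.45 ± 0.15 (adjusted p = 0.056) after SIINFEKL, where both libraries lay below every Naive library.

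Nup133 moved in both directions, at 7.56, 5.95 and 7.21 RPKM in the ERY1-OVA libraries, 9.08, 8.95 and 10.9 RPKM after OVA, 6.82, 8.31 and 8.57 RPKM after TER119-SIINFEKL, 2.5 and 2.96 RPKM after SIINFEKL and 4.53, 5.08 and 3.9 RPKM in the Naive libraries. None of the other groups overlapped Naive. It rose by 0.62 ± 0.15 (SE, log2, adjusted p = 0.0058), 1.10 ± 0.15 (adjusted p = 7.3e-05) and 0.81 ± 0.15 (adjusted p = 0.00070) after ERY1-OVA, OVA and TER119-SIINFEKL. After SIINFEKL it fell by 0.72 (adjusted p = 0.013), a call lost without SIINFEKL replicate 1 (-0.60), with array weights and with only those 2 groups fitted.

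Nup107 and Nup43 also rose in all 3 groups, by log2 0.79 and 1.07 after ERY1-OVA, 1.25 and 1.54 after OVA and 0.94 and 1.24 after TER119-SIINFEKL. Seh1l, shared with a lysosomal signalling complex, Nup160 and Sec13, shared with the coat of secretory vesicles, had the smallest changes of the 8 in these 3 groups. Sec13 rose after OVA (0.76) and TER119-SIINFEKL (0.58), the second call being lost in 5 alternatives (0.40 to 0.55). Seh1l rose after OVA (0.31), a call lost in 7 alternatives, with the smallest value, 0.10, under the length and GC correction. Nup160 rose after OVA (0.64) and was 0.43 ± 0.17 (adjusted p = 0.050) after TER119-SIINFEKL.

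In the inner ring, Nup93, Nup155 and Nup205 rose in all 3 groups. Nup93, which holds the channel proteins to the ring, measured 27.5, 22.5 and 25.4 RPKM in the ERY1-OVA libraries, 36.6, 34 and 39.8 RPKM after OVA, 27, 32 and 31.5 RPKM after TER119-SIINFEKL, 11.3 and 11.9 RPKM after SIINFEKL and 13.6, 17.2 and 13.4 RPKM in the Naive libraries. Its 3 risen groups lay above every Naive library, and both SIINFEKL libraries lay below. Nup93 rose by 0.78 ± 0.12 (SE, log2, adjusted p = 0.00028) after ERY1-OVA, 1.33 ± 0.12 (adjusted p = 2.4e-06) after OVA and 1.04 ± 0.12 (adjusted p = 1.8e-05) after TER119-SIINFEKL. Nup205 rose by 0.91, 1.21 and 1.13, and its paralog Nup188 was not called, at 0.06, 0.37 and 0.33 in the same order. Nup155 rose by 0.54, 0.75 and 0.71. Nup35 rose after OVA (0.61), a call lost in 12 alternatives, with 0.38 without OVA replicate 1. Nup98, whose gene also encodes the Y complex subunit Nup96, was called in no comparison.

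Of the central channel trio, Nup62 rose in all 3 groups, at 30.7, 30.4 and 29 RPKM in the ERY1-OVA libraries, 33.8, 38.9 and 41.3 RPKM after OVA, 25.7, 36.2 and 34.7 RPKM after TER119-SIINFEKL, 15.9 and 16.1 RPKM after SIINFEKL and 14.3, 17.9 and 17.8 RPKM in the Naive libraries. The 3 groups lay above every Naive library and the SIINFEKL values fell within the Naive range. Its log2 rises were 0.86 ± 0.14 (SE, adjusted p = 0.00030) after ERY1-OVA, 1.19 ± 0.14 (adjusted p = 1.5e-05) after OVA and 0.94 ± 0.14 (adjusted p = 0.00010) after TER119-SIINFEKL. Its partners changed less: Nup54 rose by 0.49 after OVA and 0.39 after TER119-SIINFEKL, and Nupl1 by 0.28 and 0.34. All 4 of those calls were lost with the length and GC correction, at 0.25, 0.15, 0.07 and 0.13, and the Nupl1 call after OVA in 5 more alternatives. Nup62 had no exon length in the annotation, so that correction was not made for it. In the annotation, 58.4% of the exon bases of Nupl1 overlap other models on the same strand.

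Ndc1, a membrane anchor needed for pore assembly, gave the firmest fall after soluble peptide. It measured 9.16, 7.09 and 7.61 RPKM in the ERY1-OVA libraries, 9.58, 11.3 and 12.7 RPKM after OVA, 7.99, 9.79 and 10.0 RPKM after TER119-SIINFEKL, 1.81 and 2.36 RPKM after SIINFEKL and 5.1, 5.81 and 4.5 RPKM in the Naive libraries. Both SIINFEKL libraries lay below every other library, and every ERY1-OVA, OVA and TER119-SIINFEKL library lay above every Naive library. The log2 change from Naive was 0.63 ± 0.16 (SE, adjusted p = 0.0078, limma) after ERY1-OVA, 1.13 ± 0.16 (adjusted p = 0.00011) after OVA, 0.85 ± 0.16 (adjusted p = 0.00086) after TER119-SIINFEKL and -1.30 ± 0.18 (adjusted p = 0.00053) after SIINFEKL. Of the 8 calls of SIINFEKL against Naive, Ndc1 was the 1 kept in every alternative. The other membrane nucleoporins, Pom121 and Nup210, were called in no comparison. Nup210 was the second most abundant member per length in Naive cells, at 92.7 ± 4.39 RPKM (SD, n = 3), and lay between 85.6 and 138 RPKM in all libraries.

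At the cytoplasmic face, Nup88, Aaas and Nupl2 rose in all 3 groups. Nup88, which anchors Nup214, measured 30.9, 29.6 and 29.9 RPKM in the ERY1-OVA libraries, 37.1, 32.5 and 38.1 RPKM after OVA, 30.9, 31.4 and 32.8 RPKM after TER119-SIINFEKL, 22 and 23.9 RPKM after SIINFEKL and 22.4, 20.3 and 22 RPKM in the Naive libraries. The 3 groups lay above every Naive library, and the SIINFEKL values overlapped Naive. Nup88 rose by 0.48 ± 0.09 (SE, log2, adjusted p = 0.0011) after ERY1-OVA, 0.73 ± 0.09 (adjusted p = 3.2e-05) after OVA and 0.55 ± 0.09 (adjusted p = 0.00028) after TER119-SIINFEKL. Aaas rose by 0.45, 0.68 and 0.42, and Nupl2 by 0.55, 0.57 and 0.68. Nup214 was called in no comparison, nor was Ranbp2, the large filament protein, for which the annotation names 12 pseudogenes. Rae1, an mRNA export factor, was not called against Naive, at 0.01, 0.21 and 0.21.

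The nuclear basket moved in opposite directions within itself. Nup153, which docks receptors at the basket, measured 32.1, 25.6 and 25.9 RPKM in the ERY1-OVA libraries, 25, 28.5 and 29.5 RPKM after OVA, 23.5, 31.7 and 25.9 RPKM after TER119-SIINFEKL, 33.4 and 34.5 RPKM after SIINFEKL and 39.9, 43.3 and 39 RPKM in the Naive libraries. All 11 antigen libraries lay below every Naive library. Nup153 fell, with log2 changes of -0.55 (adjusted p = 0.0037) after ERY1-OVA, -0.56 (adjusted p = 0.0028) after OVA and -0.60 (adjusted p = 0.0016) after TER119-SIINFEKL (SE 0.13 each), and was -0.26 ± 0.14 (adjusted p = 0.23) after SIINFEKL. The 3 calls held in every alternative. Nup50, its partner in importin alpha release, rose by 0.45, 0.54 and 0.45. The ERY1-OVA and TER119-SIINFEKL calls of Nup50 were each lost without either of 2 libraries (0.35 to 0.35 and 0.35 to 0.40), Naive replicate 1 in both cases and ERY1-OVA replicate 1 or TER119-SIINFEKL replicate 2. Tpr, the filament protein of the basket, was called in no comparison and lay between 36 and 58.2 RPKM. Within a library, the ratio of Nup107 to Nup153 RPKM was 0.687 to 0.741 after ERY1-OVA, 0.907 to 1.10 after OVA, 0.779 to 0.899 after TER119-SIINFEKL, 0.309 and 0.294 after SIINFEKL, and 0.266 to 0.295 in Naive cells.

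**Figure D4:**
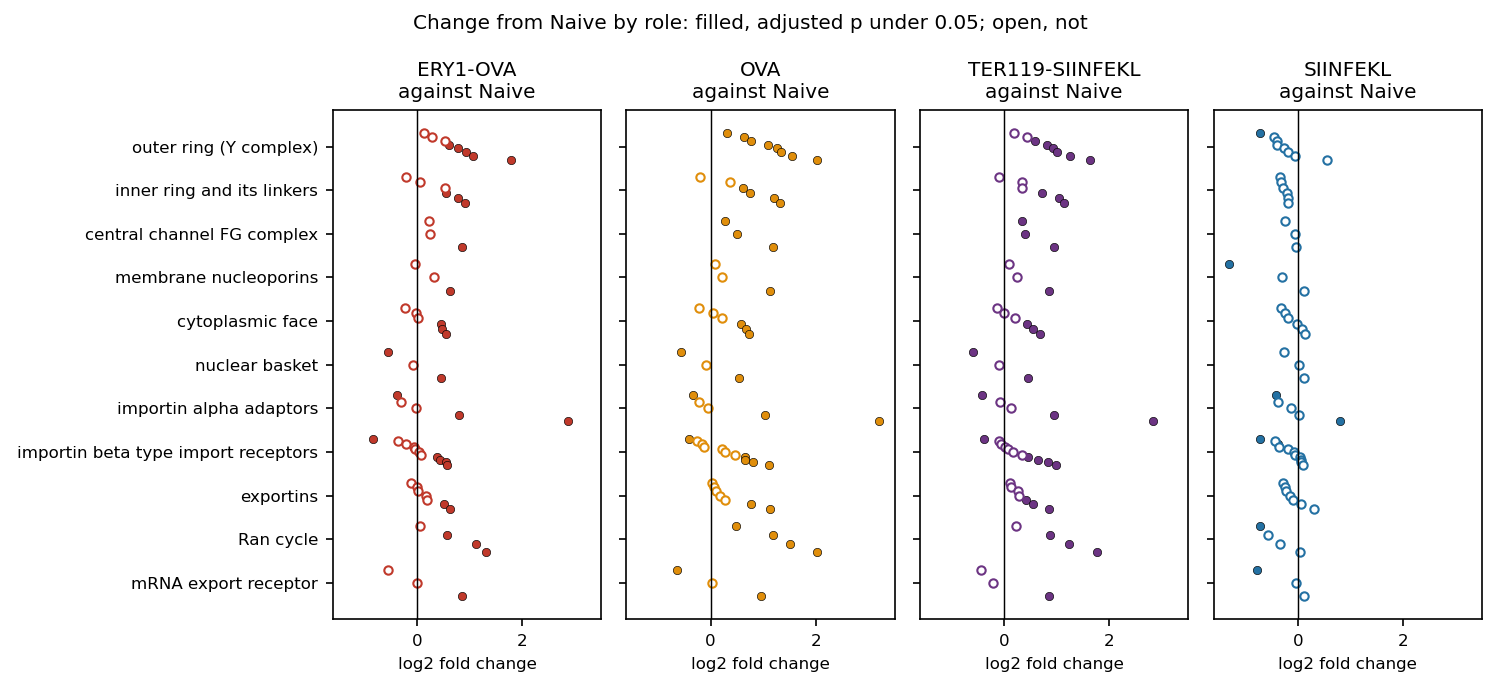
Log2 fold change from Naive of each member (points), in rows by role, with 1 panel per antigen group; filled points passed an adjusted p of 0.05 and open points did not. The outer ring row lies right of 0 in the ERY1-OVA, OVA and TER119-SIINFEKL panels, and most points of the SIINFEKL panel lie at or left of 0.

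Erythrocyte targeting was then examined within each form of antigen. For the protein, ERY1-OVA against OVA, 1 member of 59 was called, beside 1.06% of all tested genes. Rcc1 was lower after ERY1-OVA, with 25.9, 19.6 and 23.7 RPKM against 34.9, 36.7 and 41.5 RPKM after OVA, and these libraries did not overlap. The log2 change was -0.71 ± 0.14 (SE, adjusted p = 0.032, limma), and 10 alternatives lost the call, including leaving out any 1 ERY1-OVA or OVA library (log2 -0.80 to -0.60, adjusted p 0.050 to 0.15). The median change of the 59 was -0.23 beside 0.00 for all genes, and 18 had an unadjusted p under 0.05. The share of all genes under that unadjusted threshold was not counted. The next largest differences were -0.62 ± 0.15 for Ranbp1 (adjusted p = 0.065), -0.58 ± 0.14 for Ipo4 (adjusted p = 0.059), -0.56 ± 0.17 for Ipo5 (adjusted p = 0.12) and -0.55 ± 0.12 for Nup93 (adjusted p = 0.051), named after their values were seen. With array weights, which let libraries differ in precision, 27 members and 17.8% of all genes were called, so both counts rest on that choice.

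For the peptide, TER119-SIINFEKL against SIINFEKL, 36 members rose and 1 fell, where 37.4% of all genes were called, 20.4% higher and 17.0% lower. Ndc1, Kpna2 and Rcc1 had the largest rises, all given per library above. Ndc1 was higher by 2.16 ± 0.18 (SE, log2, adjusted p = 4.1e-06), Kpna2 by 2.03 ± 0.21 (adjusted p = 2.1e-05) and Rcc1 by 1.72 ± 0.16 (adjusted p = 6.9e-06), and these calls held in every alternative. All 8 members of the Y complex and all 4 Ran cycle genes rose. The 1 fall was Tnpo2 (-0.47 ± 0.16, adjusted p = 0.034), lost in 6 alternatives, and without TER119-SIINFEKL replicate 1 it was -0.28. Of the 37 calls, 23 held in every alternative, and among the 14 lost were those of Rangap1 and of 3 Y complex members, Nup37, Sec13 and Seh1l. Without SIINFEKL replicate 1 Rangap1 was 0.45, and without SIINFEKL replicate 2 Nup37 was 0.70.

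The soluble forms differed from each other in the same members' values, in a comparison that shares the SIINFEKL libraries with the previous one. OVA against SIINFEKL called 36 members higher and 1 lower, where 42.2% of all genes were called, 22.4% higher and 19.9% lower. Ndc1 was higher by 2.43 ± 0.18 (SE, log2, adjusted p = 8.8e-07), Kpna2 by 2.39 ± 0.21 (adjusted p = 3.2e-06) and Rcc1 by 1.98 ± 0.16 (adjusted p = 1.3e-06). Tnpo2 was again the 1 lower member (-0.50 ± 0.16, adjusted p = 0.024), and 4 alternatives lost that call (-0.56 to -0.43). The median change of the 59 was 0.65 here and 0.56 in TER119-SIINFEKL against SIINFEKL.

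Between the 2 erythrocyte-targeted antigens, ERY1-OVA against TER119-SIINFEKL, 1 member of 59 was called, beside 0.562% of all genes, and 5 had an unadjusted p under 0.05. That unadjusted count was likewise not made over all genes. Ipo4 was lower after ERY1-OVA, with 8.04, 7.75 and 9.0 RPKM against 11.8, 15.6 and 15.3 RPKM after TER119-SIINFEKL, and the groups did not overlap. Its log2 change was -0.78 ± 0.14 (SE, adjusted p = 0.025, limma), and 7 alternatives lost the call, including leaving out any 1 ERY1-OVA library or TER119-SIINFEKL replicate 2 or 3 (log2 -0.84 to -0.71). The median change of the 59 was -0.11 beside 0.02 for all genes, and Kpna2 (0.04 ± 0.19) and Ran (-0.10 ± 0.20) were near 0.

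The effect of targeting itself differed between protein and peptide for 35 members, all with the protein effect below the peptide effect, where 37.7% of all genes were called, 20.6% in that direction and 17.1% in the other. The difference, the log2 change of ERY1-OVA against OVA minus that of TER119-SIINFEKL against SIINFEKL, was -2.65 ± 0.24 for Ndc1 (SE, log2, adjusted p = 8.8e-06), -2.43 ± 0.21 for Rcc1 (adjusted p = 6.9e-06) and -2.35 ± 0.28 for Kpna2 (adjusted p = 6.5e-05). All 8 Y complex genes and all 4 Ran cycle genes were among the 35. The low level of these genes in the 2 SIINFEKL libraries enters every one of those differences. By the group names, the targeted protein carried ERY1 and the targeted peptide TER119, so antigen form and binder cannot be told apart. Of the 35 calls, 29 held in every alternative, and the 6 lost in at least 1 were Nup188, Nup37, Nupl1, Nxt1, Rae1 and Sec13. Without OVA replicate 1 and TER119-SIINFEKL replicate 1 together, Nxt1 was -0.57 against -0.99 and Sec13 was -0.51 against -0.87 with all libraries.

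**Figure D5:**
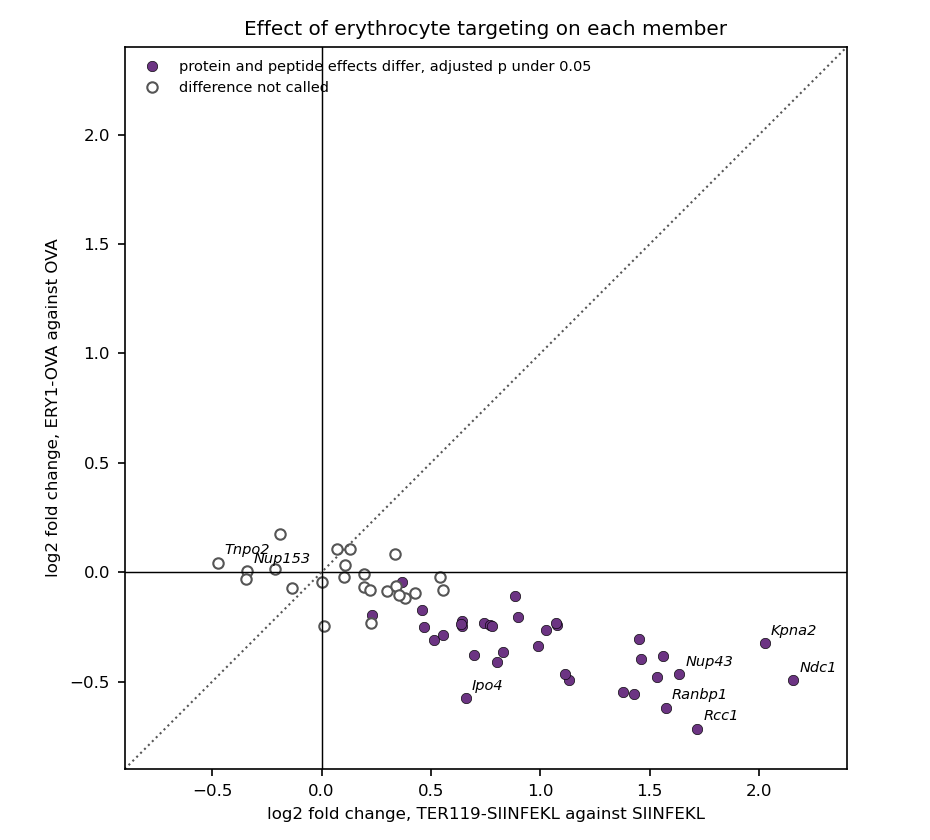
Log2 fold change of each member for ERY1-OVA against OVA (vertical axis) and TER119-SIINFEKL against SIINFEKL (horizontal axis); filled points are the 35 members whose 2 effects differed at an adjusted p under 0.05, and the dotted line marks equal effects. Filled points lie right of the line, with Ndc1, Kpna2 and Rcc1 farthest out on the peptide axis.

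Cell cycle genes were higher in the 3 groups in which most called members were higher, and 5 of the 12 listed also rose after SIINFEKL. Of 12 listed genes, all 12 rose after ERY1-OVA, OVA and TER119-SIINFEKL, with median log2 changes of 2.20, 2.65 and 2.33 from Naive. Of all tested genes, 20.9%, 24.4% and 24.6% rose in those groups. After SIINFEKL 5 rose and 1, Mcm2, fell, while 1 of the 59 members rose and 7 fell. Of all tested genes, 7.58% rose and 8.34% fell there. The median log2 change of the 12 after SIINFEKL was -0.004, beside -0.006 for all tested genes and -0.19 for the 59 members. The alternatives were read for the members only, so these cell cycle calls have no such check. The 5, Ccnb1, Mki67, Ccna2, Cdk1 and Top2a, act in late cell cycle, and of the replication genes Mcm2, a subunit of the replicative helicase, was at -0.58 (SE 0.18, adjusted p = 0.040). The other replication genes were not called after SIINFEKL, with Mcm3, Mcm4, Mcm5, Mcm7 and Pcna between -0.38 and -0.14 and Mcm6 at 0.13. In the 2 SIINFEKL libraries Mki67 was 21.2 and 2.89 RPKM. The median change of the 59 members from the Naive mean was -0.21 and -0.17 in them. In the other antigen libraries that median lay between 0.21 and 0.62, and between -0.05 and 0.09 in the Naive libraries. The part of cell division in the members' changes was not tested.

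Related genes outside the symbol rule behaved in part alike. Of 21 tested transport and mRNA export genes, 10 rose and 2 fell after ERY1-OVA, 12 rose and 0 fell after OVA, 8 rose and 0 fell after TER119-SIINFEKL, and 0 rose and 1 fell after SIINFEKL, with medians of 0.25, 0.38, 0.41 and -0.06. The shares of all genes that rose in these comparisons were 20.9%, 24.4%, 24.6% and 7.58%. Alyref, an mRNA export adaptor, rose by 1.07, 1.53 and 1.29 after ERY1-OVA, OVA and TER119-SIINFEKL. Nutf2, which carries Ran back into the nucleus, rose by 0.57, 1.02 and 0.83. Ahctf1, the chromatin-binding subunit that seeds pore assembly, was lower after ERY1-OVA (-0.47) and was -0.25 after OVA and -0.21 after TER119-SIINFEKL. The lists were chosen with earlier results of these data known.

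In all, 17 of the 59 (28.8%) were called in none of the 9 comparisons, beside 29.6% of all tested genes: Ipo8, Ipo13, Kpna1, Kpna6, Nup98, Nup210, Nup214, Nxf1, Pom121, Ranbp2, Tnpo1, Tnpo3, Tpr, Xpo4, Xpo5, Xpo6 and Xpo7. A missed threshold does not show that their levels were equal. Of the calls against Naive, 25 of 29 after ERY1-OVA, 29 of 37 after OVA, 26 of 33 after TER119-SIINFEKL and 1 of 8 after SIINFEKL held in every alternative. Nup62, counted among those that held, was not in the length and GC correction.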

How the data were processed

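Stranded poly(A) libraries from 14 samples of sorted OT-I CD8+ T cells were compared, and no column of the table was left unused. The authors deposited log2 RPKM values per gene, per the file header and the values, 4.3% of which are negative. Read as base 2 they sum, times exon length, to 1763890 to 2042610 per library, of the order that the unit implies, and read as base e to 22637300 to 37605400. Per the submitters' processing notes the builds were GRCm38 and mm10, and the tools included edgeR, STAR (2.4.2) and bcl2fastq (2.17.1.14), with no role or order given. The counter, annotation, strand setting and prior count are not given in the sources used here. Read counts were not used, so the depth is unknown and no counting interval is given.

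The design assumed log2 values would be used as deposited. Genes with a mean of at least 1 RPKM were kept (9793, 313 removed). Limma 3.58.1 in R 4.3.3 fitted 5 group means over all 14 libraries with a mean-variance trend. Tests were two-sided, adjusted by Benjamini-Hochberg over all tested genes within a comparison, and called under 0.05. Same-numbered libraries deviated together in all 3 pairs (correlations over 0.1) for TER119-SIINFEKL with Naive (0.26 to 0.32) and with OVA (0.25 to 0.67), and not for the other groups with 3 pairs. For SIINFEKL, with 2 pairs per group, both were over 0.1 with Naive (0.12 and 0.19) and with OVA (0.19 and 0.28). The labels give no source of pairing. Fold changes of genes near 1 RPKM depend on the unknown prior count. The procedure was tested on simulated data. Exon overlap came from GENCODE M21 and promoter windows from RefSeq (GRCm38.p6). Tables and figures were made with matplotlib 3.10.9, numpy 2.4.6 and pandas 2.3.3 in Python 3.11.15.

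The symbol rule for the members uses no measured value, but the topic and the lists were chosen with earlier results of these data known. Genes named with values were the 3 largest rises and falls per comparison among called members without overlap, the member with the smallest adjusted p of each role, both whole families (importin alpha and Ran cycle), members called in opposite directions, and members never called. Other members are described more briefly. Alternatives were median-of-ratios rescaling, quantile normalization, pseudocounts of 0.1 and 1, no filter, a filter at 3 RPKM, array weights, robust moderation, a replicate block, no trend, only the groups compared, leaving out each library, OVA replicate 1 with TER119-SIINFEKL replicate 1, or the SIINFEKL group, and a correction for gene length and GC content (9716 genes). Nup62 was not among the genes of that correction.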

Additional observations from a re-analysis of the deposited data

Results flagged for a closer look

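The effect of erythrocyte targeting differed between protein and peptide, in a test of the difference itself, for 35 members of 59. All 35 had the protein effect below the peptide effect. Of all tested genes, 37.7% were called, 20.6% in that direction and 17.1% in the other. Among the named genes the difference, on the log2 scale, was -2.65 for Ndc1, -2.43 for Rcc1 and -2.35 for Kpna2. For Ndc1 the targeting effect was -0.49 ± 0.16 (SE) for the protein and 2.16 ± 0.18 for the peptide, for Rcc1 -0.71 ± 0.14 and 1.72 ± 0.16, and for Kpna2 -0.33 ± 0.19 and 2.03 ± 0.21. The peptide effect rests on 2 SIINFEKL libraries, and Kpna2 measured 43.0 and 24.6 RPKM in them. Protein and peptide were also targeted by different binders, ERY1 and TER119, so the form and the binder cannot be told apart.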

How the results depend on the processing

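Of 2212 alternative values of the named results, 2097 kept their direction and side of the threshold, 100 lost the call, 15 gained it and 0 reversed. For SIINFEKL against Naive, 8 members were called, and 4 with array weights (8.05% of all genes), 3 with only those groups fitted (6.18%) and 13 with the length and GC correction (22.1%). For ERY1-OVA against OVA the count of 1 became 27 with array weights (17.8% of all genes), 6 with the length and GC correction (2.44%), 5 without the SIINFEKL group (3.67%), and 2 with median-of-ratios rescaling, with a pseudocount of 1 or with a filter at 3 RPKM. For ERY1-OVA against TER119-SIINFEKL the count of 1 became 14 with array weights (13.2% of all genes), 0 with only those groups fitted (limma, while 5 had an unadjusted p under 0.05 with all groups), and 2 without OVA replicate 1 and TER119-SIINFEKL replicate 1, without the SIINFEKL group or with the length and GC correction. The cause was not tested. The count of 5 at an unadjusted p was not made over all genes. Leaving out 1 library at a time gave 25 to 31 calls for ERY1-OVA against Naive, 30 to 39 for OVA, 30 to 35 for TER119-SIINFEKL and 1 to 11 for SIINFEKL, the 1 being without SIINFEKL replicate 1. It gave 0 to 5 for ERY1-OVA against OVA, 27 to 37 for TER119-SIINFEKL against SIINFEKL, 0 to 2 for ERY1-OVA against TER119-SIINFEKL, 31 to 39 for OVA against SIINFEKL and 32 to 37 for the difference of the effects. Where 1 SIINFEKL library remained, its spread was taken from the other groups. For these ranges, and for the counts above without a percentage, the share of all genes is not given. A move of the members alone cannot be told there from a move of all genes.

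Over 26 pairs of the same replicate number, deviations from group means correlated at -0.44 to 0.67, with 14 pairs over 0.1. Of the groups with 3 pairs, all 3 were over 0.1 for TER119-SIINFEKL with Naive and with OVA, and not for the others. SIINFEKL has 2 pairs with each group, and both were over 0.1 with Naive (0.12 and 0.19) and with OVA (0.19 and 0.28). All pairs were negative for SIINFEKL with ERY1-OVA and with TER119-SIINFEKL, and for OVA with ERY1-OVA (-0.44 to -0.08). With the replicate block no member lost its call in TER119-SIINFEKL against Naive. Calls were lost for Rcc1 in ERY1-OVA against OVA, so the 1 member called there with the block was another. They were also lost for Ipo7 and Kpna4 in SIINFEKL against Naive, Nupl1 and Nupl2 in OVA against SIINFEKL, and Nupl1 and Rae1 in the difference. The counts that follow are given without the share of all genes. In all, with the replicate block the counts were 31, 38, 33 and 6 against Naive (ERY1-OVA, OVA, TER119-SIINFEKL and SIINFEKL), 1 for ERY1-OVA against OVA, 38 for TER119-SIINFEKL against SIINFEKL, 1 for ERY1-OVA against TER119-SIINFEKL, 35 for OVA against SIINFEKL and 34 for the difference.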

Other observations

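Genes of the nuclear envelope and lamina around the pore were called both higher and lower after ERY1-OVA, OVA and TER119-SIINFEKL. Of 14 tested, 4 rose and 2 fell after ERY1-OVA, 5 rose and 3 fell after OVA, 4 rose and 3 fell after TER119-SIINFEKL, and 0 rose and 3 fell after SIINFEKL, relative to Naive, where 20.9% and 19.0%, 24.4% and 23.1%, 24.6% and 23.0%, and 7.58% and 8.34% of all genes did so. Lmnb1, a B-type lamin, rose by 2.67, 3.12 and 2.64 on the log2 scale after ERY1-OVA, OVA and TER119-SIINFEKL, and Tmpo, which binds lamins to chromatin, by 1.31, 1.42 and 1.18. Lbr, a lamin receptor, rose by 0.46, 0.44 and 0.28. Sun2, which joins the envelope to the cytoskeleton, fell in all 4 groups, with changes of -0.78, -0.78, -0.89 and -0.56 after ERY1-OVA, OVA, TER119-SIINFEKL and SIINFEKL. Lmnb2, the other B-type lamin, was lower after SIINFEKL (-1.06) and higher after OVA (0.72). Banf1, which bridges chromatin and envelope proteins, was lower after SIINFEKL (-0.52) and higher after ERY1-OVA (0.41), OVA (0.75) and TER119-SIINFEKL (0.63). The list and its members were chosen with earlier results known.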
